A study of Mus musculus with 39 samples.

Results

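The cytosolic ribosomal protein genes were followed through lung and colon of mice that carried or lacked Cd177, a gene for a surface glycoprotein of neutrophils. Members were chosen by symbol: Rpl or Rps with a number, Rpsa, and the stalk genes Rplp0, Rplp1 and Rplp2. 90 symbols matched; 6 of them (Rps3a2, Rps3a3, Rps4l, Rps12l1, Rpl6l and Rpl32l) are annotated as pseudogenes and were left out, which gave 84 protein-coding genes of the 55357 in each table. They comprised 31 small-subunit genes, 43 large-subunit genes, 3 stalk genes and 7 paralogs (Rps27l, Rpl36al, Rpl22l1, Rpl7l1, Rpl3l, Rpl10l and Rpl39l). 81 of the 84 passed the filter on low values in both tissues, while Rpl3l, Rpl10l and Rpl39l did not. All mice were of the C57BL/6N strain background, and each was either wild type (WT) or a Cd177 knock-out (KO) and belonged either to a sham operation group (sham) or to an acute pancreatitis group (AP). Tissue, genotype and treatment gave 8 groups of 5 RNA-seq libraries, apart from 4 in the colon of KO mice with AP (replicates 1, 3, 4 and 5), or 39 libraries in all. The labels gave neither the age of the mice, nor how pancreatitis was induced, nor the kind of knock-out allele, and they did not say whether the libraries of a group came from separate mice, so the p-values below measure the spread between libraries, which may be partly technical.

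The cytosolic ribosome reads mRNA on its small subunit and joins amino acids on its large subunit, and a flexible stalk of P proteins on the large subunit calls in the translation factors that hydrolyse GTP. Nearly every ribosomal protein is needed in equal number, and most of their mRNAs begin with a run of pyrimidines through which mTOR signalling controls their translation. In barrier tissues such as lung and gut these genes rank among the most abundant mRNAs, and most encode small basic proteins, so the mRNAs are short.

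Coding sequences of 3 members are shown because the comparisons below turned on short members and on a pair of equal length. Rpl41, a small basic peptide of the large subunit with the shortest coding sequence of the 84, lies at chr10:128548114-128549305 on the minus strand. Capitals mark the start and stop codons (GRCm38, GENCODE annotation).
Rpl41: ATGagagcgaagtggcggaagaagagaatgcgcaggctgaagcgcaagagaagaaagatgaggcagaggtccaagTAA
Coding length, without the stop codon, ran from 75 bases in Rpl41 to 1257 in Rpl4, with a median of 454.5.

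Rps27 is a zinc-binding protein of the small subunit, and Rps27l is its paralog, known as a target of p53. Rps27 lies at chr3:90212522-90213651 on the minus strand and Rps27l at chr9:66946086-66949516 on the plus strand. Their coding sequences have the same 252 bases plus the stop codon and are identical at 194 of 255 positions, or 76.1%; capitals mark the 61 that differ.
Rps27: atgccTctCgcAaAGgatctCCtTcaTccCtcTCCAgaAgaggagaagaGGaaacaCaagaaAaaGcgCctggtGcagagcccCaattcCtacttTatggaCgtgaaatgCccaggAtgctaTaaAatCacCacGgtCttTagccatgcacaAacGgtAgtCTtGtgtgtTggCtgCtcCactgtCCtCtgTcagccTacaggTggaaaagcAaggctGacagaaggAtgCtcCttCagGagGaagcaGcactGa
Rps27l: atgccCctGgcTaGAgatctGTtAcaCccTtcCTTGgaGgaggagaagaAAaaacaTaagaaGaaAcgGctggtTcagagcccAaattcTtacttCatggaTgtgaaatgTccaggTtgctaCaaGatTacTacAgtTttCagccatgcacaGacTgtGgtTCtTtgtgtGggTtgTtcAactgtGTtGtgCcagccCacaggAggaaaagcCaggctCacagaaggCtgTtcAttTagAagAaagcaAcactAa
The longest stretch without a difference spanned 11 bases.

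The region around the transcription start is shown for members called lower or higher in some of the comparisons of KO with WT libraries. They did not move alike in all of them: Rpl38 was called lower only in colon, and Rplp2 was called higher only in lung. In sham lung no member was called lower. RefSeq start sites (GRCm38.p6) were matched for 64 of the 84 members, and the letters run from 60 bases before the listed start to 20 after it. Capitals mark the first C followed by at least 4 pyrimidines that begins between 10 bases before and 20 bases after the start. Later runs in that span, as in Rps27, Rpl38 and Rpl12, were left in lower case. Among members that fell, Rps27, Rps28, Rpl37 and Rpl38 lie on the minus, minus, plus and plus strands.
Rps27, chr3:90213629-90213708: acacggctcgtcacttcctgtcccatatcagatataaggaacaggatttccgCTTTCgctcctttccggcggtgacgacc
Rps28, chr17:33824543-33824622: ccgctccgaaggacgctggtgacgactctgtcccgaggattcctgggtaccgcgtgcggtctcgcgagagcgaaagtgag
Rpl37, chr15:5116553-5116632: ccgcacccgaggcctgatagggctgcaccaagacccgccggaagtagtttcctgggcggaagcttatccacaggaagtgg
Rpl38, chr11:114668520-114668599: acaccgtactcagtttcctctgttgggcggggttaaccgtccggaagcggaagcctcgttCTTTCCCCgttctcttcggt
Among members that rose, Rplp2, Rpl12 and Rpsa lie on the plus strand and Rps12 on the minus strand.
Rplp2, chr7:141447591-141447670: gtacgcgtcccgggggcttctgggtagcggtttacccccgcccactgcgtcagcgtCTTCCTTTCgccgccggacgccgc
Rpl12, chr2:32961652-32961731: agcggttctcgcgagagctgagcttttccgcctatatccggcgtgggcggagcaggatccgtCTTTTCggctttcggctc
Rpsa, chr9:120127706-120127785: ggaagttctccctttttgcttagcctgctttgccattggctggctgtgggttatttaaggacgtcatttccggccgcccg
Rps12, chr10:23787190-23787269: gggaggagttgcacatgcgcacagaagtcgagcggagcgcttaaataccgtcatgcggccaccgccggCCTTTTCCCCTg
A run was found in Rps27 and Rpl38 but in neither Rps28 nor Rpl37, and in Rplp2, Rpl12 and Rps12 but not in Rpsa. Such a run lay at a start of 45 of the 64 members (70.3%) and of 43.8% of all 27025 genes in the same table. In the 300-base window and on both strands, CCGGAAG was present in 40.6% of the members and 9.93% of all genes, AAGATGGC in 9.38% and 3.19%, GGGCGG in 62.5% and 38.2%, and TATAAA in 10.9% and 15.7%. These matches describe letters in a window and were not tied to the expression values.

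Cd177 was listed at 0 FPKM (fragments normalized to transcript length and library size) in all KO libraries; it lay between 1.3 and 4.18 FPKM in WT lung and between 38.5 and 76.4 FPKM in WT colon. Surfactant and other alveolar type 2 markers summed to 12313 to 76762 FPKM in lung libraries and to at most 0.335 in colon libraries. Sequencing depth, recovered from genes with 1 transcript, was about 57900000 to 71200000 reads in WT lung and 77000000 to 95400000 reads in KO lung, so genotype and depth cannot be told apart there; in colon the ranges were 55600000 to 78300000 and 77700000 to 98600000 reads. 6 KO libraries correlated with their own group below 0.94 and are treated below as standing apart: lung AP replicate 3, lung sham replicates 4 and 5, colon AP replicates 1 and 4, and colon sham replicate 5. 55.8% of all 15978 genes tested differed between genotypes in lung with AP, so the background of calls was high.

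Levels of the members spanned more than an order of magnitude per kilobase in each group. In lung of WT sham mice Rplp1, a stalk protein, was highest at 1029 ± 130 FPKM (SD, n = 5), followed by Rps27 at 1002 ± 197 and Rpl41 at 970 ± 148, and these neighbours did not differ beyond their spread. Of the 81 tested members, Rpl22l1 at 64.6 ± 8.36 FPKM and Rpl7l1 at 22.3 ± 2.0 FPKM were lowest there. In colon of WT sham mice the order began with Rpl41 at 1866 ± 903 FPKM and Rplp1 at 1664 ± 458, again within their spread, and ended with Rpl7l1 at 22.9 ± 0.810. FPKM divides by annotated transcript length, and for members with several annotated transcripts it also rests on how reads were assigned to them. 298 annotated pseudogenes carry the symbol of a member, and reads shared with them could be counted on either side.

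Summed over the members, the share of all FPKM was 7.22% ± 0.39 in WT sham lung, 7.82% ± 0.38 in WT AP lung, 11.3% ± 3.60 in KO sham lung and 8.81% ± 1.84 in KO AP lung (SD, n = 5 each). In colon it was 9.72% ± 0.75, 10.1% ± 0.80, 10.3% ± 1.50 and 9.05% ± 1.23 in the same order (n = 4 in the last group). KO sham lung was the most variable group, from 7.58% to 17.0%. The part of that sum from members with a coding length of at most 300 bases separated the genotypes: it was 13.9% to 17.5% in WT lung against 5.98% to 12.6% in KO lung, and 13.3% to 18.6% in WT colon against 5.65% to 10.4% in KO colon. No KO library reached the lowest WT library of its tissue.

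**Figure D1:**
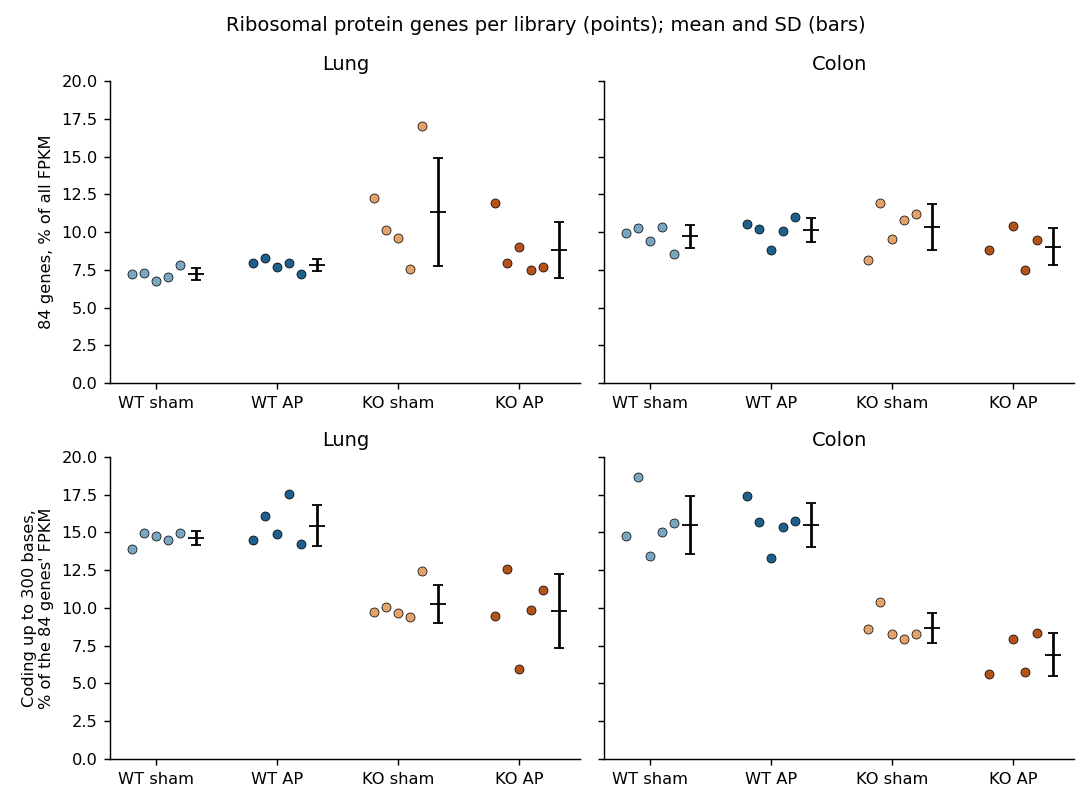
Each point is 1 library; the upper panels give the summed FPKM of the 84 ribosomal protein genes as a percent of all FPKM and the lower panels the percent of that sum from members with coding length up to 300 bases, with bars for the group mean and SD. In the lower panels the KO libraries, at 5.65% to 12.6%, all lie below the WT libraries of their tissue.

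In lung of sham mice most ribosomal protein genes were higher in KO than in WT libraries. 62 of 81 (76.5%) rose and none was called lower, against 58.8% of all genes tested that were called in either direction and 28.8% that were called higher (limma, Benjamini-Hochberg adjusted p under 0.05). All 3 stalk genes, 30 of 43 large-subunit genes, 25 of 31 small-subunit genes and the 4 tested paralogs were among them. The median log2 difference over the 81 was 0.79, beside -0.01 over all genes tested, and 28 members rose at least 2-fold. Other short protein-coding genes, with a longest transcript of at most 1000 bases, moved likewise: 401 of 641 were higher and 29 lower, with a median of 0.78, and of the 199 that averaged 50 FPKM or more 144 (72.4%) were higher, with a median of 0.92. The share of members called higher lay near that of these abundant short genes, and the difference was not tested. Most members would not meet this limit themselves: 49, counted before the filter on low values, have a longest transcript over 1000 bases. These short genes, here and below, are therefore not matched to the members in transcript length.

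Rpsa, a small-subunit protein first described as a laminin receptor precursor, stood at 325, 285, 274, 275 and 372 FPKM in the WT sham lung libraries and at 1286, 870, 738, 723 and 2330 FPKM in the KO sham libraries. The groups did not overlap, and the log2 difference was 1.81 (SE 0.26, limma adjusted p = 1.23e-05). Rplp2, a stalk protein, moved from 217 to 301 FPKM in WT to 516 to 1899 FPKM in KO libraries, a log2 difference of 1.66 (SE 0.28). Rpl12, which sits at the base of the stalk, had the same log2 difference of 1.66 (SE 0.23), with WT libraries at 236, 232, 216, 232 and 275 FPKM and KO libraries at 1012, 642, 561, 486 and 1360 FPKM. Rps2, a protein of the mRNA entry side of the small subunit, rose by 1.59 (SE 0.25) on the log2 scale, Rplp1 by 1.56 (SE 0.26) and Rplp0, the stalk's anchor, by 1.11 (SE 0.18).

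Several members with other known roles also rose in the same libraries. Rps27a, made as a fusion with ubiquitin, rose by 1.32 on the log2 scale (SE 0.25), and Rpl13a by 1.08 (SE 0.26). Rps6, the substrate of the S6 kinases, lay at 503 to 718 FPKM in WT and 651 to 1784 FPKM in KO libraries, a log2 difference of 0.81 (SE 0.22) with overlapping groups. Rps19, a gene of Diamond-Blackfan anaemia, rose by 0.81 (SE 0.24) and Rpl5, which binds Mdm2, by 0.72 (SE 0.22). After the correction for transcript length Rps6 was at 0.25 and Rpl5 at 0.42, and after that for coding length Rps19 was at 0.28, none of them past the threshold. Among the short members, 3 of the 10 tested members with coding length up to 300 bases rose, 2 of them at least 2-fold. Rpl41, the shortest member, and Rps27l were among the 3. Rps29 had a log2 difference of -0.68 that did not pass the test (limma adjusted p = 0.0929).

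KO sham replicate 5 was the highest KO sham library for Rpsa, Rplp2, Rpl12, Rplp1 and Rps29. Without it 54 members were called higher and 3 lower, and without the 3 lung libraries that stand apart 61 were higher and 2 lower. Dividing each library by its FPKM sum (TPM scale), which moved the median of all genes by -0.24, left 49 higher and 2 lower, and removing each library's trend on transcript length left 37 higher and 4 lower.

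In lung of AP mice the members split by direction. 27 of 81 rose and 5 fell in KO libraries, or 39.5% called, against 55.8% of all genes tested, of which 27.6% were higher and 28.1% lower. The stalk genes rose in all 3 cases with a median log2 difference of 1.15, together with 11 large-subunit genes, 10 small-subunit genes and 3 of 4 paralogs. Those that fell were Rps29, Rpl37, Rps28, Rps27 and Rpl31, with coding lengths of 168 to 375 bases and a median of 252. The median over all 81 was 0.31, beside 0.00 over all genes; of the 199 other abundant short genes 108 were higher and 12 lower, with a median of 0.64. The split of the members was 20 higher and 8 lower on the TPM scale and 17 higher and 11 lower after the correction for transcript length.

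Rps29, a zinc-binding protein of the small subunit, lay at 654, 907, 835, 844 and 540 FPKM in WT AP lung and at 317, 333, 133, 212 and 249 FPKM in KO AP lung. Each KO library was below each WT library, and the log2 difference was -1.65 (SE 0.34, limma adjusted p = 0.000507). Rpl37, a zinc-binding protein of the large subunit, lay at 302 to 410 FPKM in WT and 141 to 211 FPKM in KO libraries, a log2 difference of -1.01 (SE 0.26, limma adjusted p = 0.00286). Rps28, which lies near the mRNA exit of the small subunit, had a log2 difference of -0.84 (SE 0.30) and Rps27 one of -0.74 (SE 0.27). The calls of Rps28 and Rps27 were lost without KO AP replicate 3 or without WT AP replicate 4, and that of Rps27 also without KO AP replicate 4; neither passed with no filter on low values.

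Rplp1 moved the other way in the same libraries, from 1152, 1148, 1117, 1411 and 970 FPKM in WT AP to 3532, 2560, 2716, 2546 and 1858 FPKM in KO AP lung. Its log2 difference was 1.17 (SE 0.26, limma adjusted p = 0.00106), with no overlap. Rplp2 rose by 1.15 (SE 0.28), Rpl12 by 1.09 (SE 0.23), Rpsa by 1.08 (SE 0.26) and Rplp0 by 0.76 (SE 0.18) on the log2 scale. Groups did not overlap for 29 of the 81 members, or 35.8%, while this held for 38% of all genes tested; in sham lung it was 35 members, beside 41.8% of all genes. Without the 3 lung libraries that stand apart, 29 members were higher and 6 lower.

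**Figure D2:**
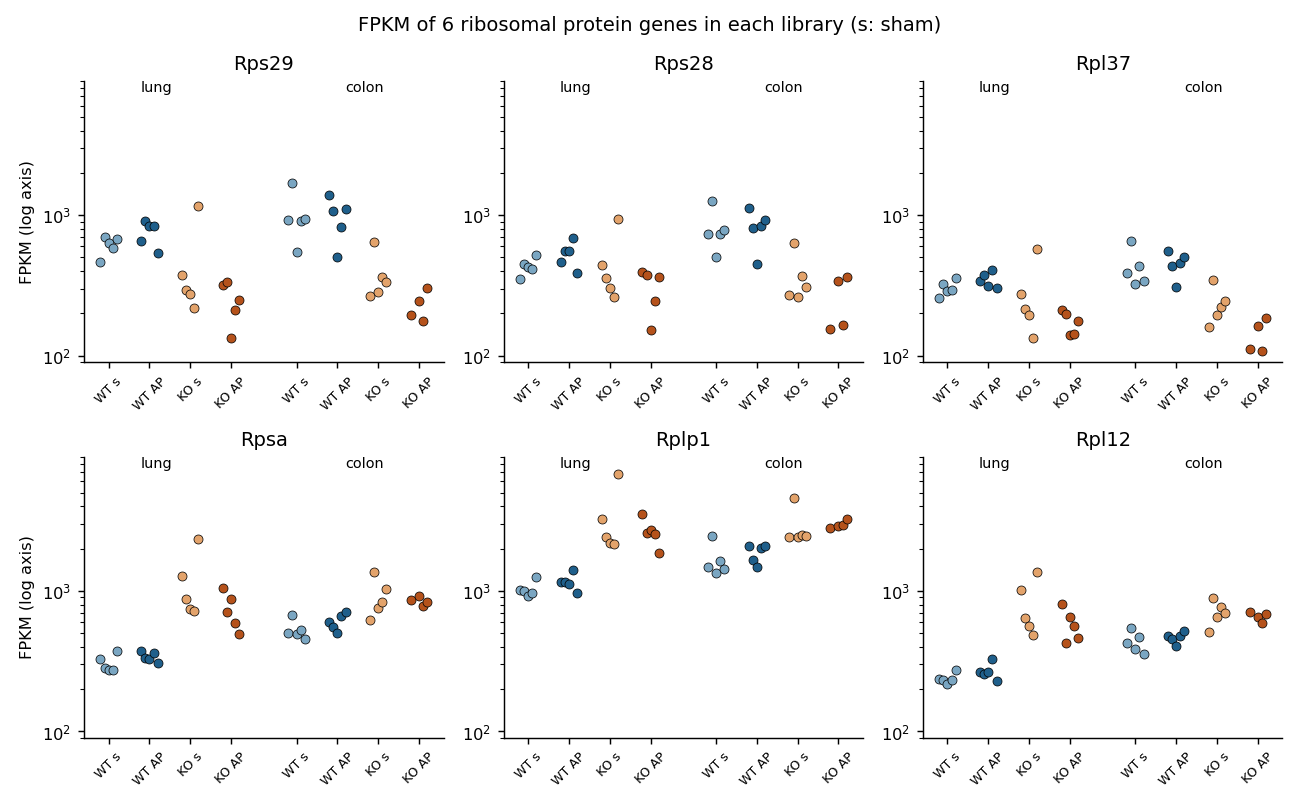
FPKM (log axis) of Rps29, Rps28, Rpl37, Rpsa, Rplp1 and Rpl12 in each library, by tissue, genotype and treatment. In lung AP and colon AP the KO points of Rps29 lie below all WT points, while in the lung panels the KO points of Rpsa, Rplp1 and Rpl12 lie above all WT points.

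In colon of sham mice 23 of 81 members rose and 5 fell in KO libraries (34.6% called), against 31.4% of all 15001 genes tested, of which 16% were higher and 15.4% lower. The share was thus near the background. The 5 that fell were Rps29, Rps28, Rpl38, Rpl37 and Rps27, with coding lengths of 168 to 291 bases and a median of 210; the 23 that rose had a median of 624 bases. The median over the 81 was 0.31, beside 0.01 over all genes and 0.39 over 189 other abundant short genes, of which 54 were higher and 8 lower; 10 large-subunit, 10 small-subunit, 2 paralog and 1 stalk gene made up the rise. On the TPM scale the split was 13 higher and 12 lower, with upper-quartile scaling 17 and 5, and after the correction for transcript length 10 and 10.

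Rps29 lay at 923, 1683, 544, 904 and 941 FPKM in WT sham colon and at 267, 649, 285, 363 and 335 FPKM in KO sham colon. KO replicate 2 exceeded WT replicate 3, so the groups overlapped, and the log2 difference was -1.38 (SE 0.31, limma adjusted p = 0.00325). Rps28 had a log2 difference of -1.13 (SE 0.32), Rpl38, known for its part in axial patterning, one of -0.93 (SE 0.28), Rpl37 one of -0.87 (SE 0.23) and Rps27 one of -0.79 (SE 0.23), which did not pass with only the groups compared in the fit. Among the members that rose, Rpl22l1 led with a log2 difference of 1.03 (SE 0.24), followed by Rps2 at 0.89 (SE 0.20), Rps3a1 at 0.84 (SE 0.18) and Rps12 at 0.78 (SE 0.22). Rps3a1, a small-subunit protein with 1 annotated transcript, lay at 572 to 959 FPKM in WT and 1023 to 1775 FPKM in KO libraries without overlap. Only 3 members had groups that did not overlap, against 17.3% of all genes. Against the 28 members called here, 17 were called without KO sham replicate 2, 18 without WT sham replicate 5 and 22 without the 3 colon libraries that stand apart.

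In colon of AP mice more members fell than rose. 13 of 81 members fell and 4 rose in KO libraries (21.0% called), against 18.3% of all genes tested, of which 7.37% were higher and 10.9% lower. The share called was thus near the background, and calls over all genes also leaned to lower values. 9 of those that fell were large-subunit genes and 4 small-subunit genes, with coding lengths of 75 to 534 bases and a median of 252. Rps3a1, Rplp1, Rpl17 and Rpl12 rose. The median over all 81 was -0.04, beside -0.01 over all genes and -0.10 over 189 other abundant short genes, of which 16 were higher and 19 lower; the split of the members was 4 higher and 20 lower on the TPM scale and 9 and 13 with upper-quartile scaling.

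Rps29 lay at 1387, 1070, 505, 825 and 1108 FPKM in WT AP colon and at 196, 244, 177 and 305 FPKM in the 4 KO AP libraries, with no overlap. Its log2 difference of -2.03 (SE 0.33, limma adjusted p = 0.000929) was the largest of any member in any comparison. Rps28 fell from 1116, 811, 446, 831 and 931 FPKM to 155, 340, 165 and 365 FPKM, a log2 difference of -1.73 (SE 0.34, limma adjusted p = 0.00285). Rpl37 went from 309 to 553 FPKM in WT to 109 to 185 FPKM in KO libraries, a log2 difference of -1.68 (SE 0.25, limma adjusted p = 0.000641), and Rpl38 had one of -1.54 (SE 0.30). Rps27 at -1.18, Rpl36a at -1.03, Rpl39 at -0.78 and Rpl11, which binds Mdm2 beside Rpl5, at -0.64 also passed on the log2 scale; of these, Rpl36a, Rpl39 and Rpl11 did not pass without the 3 libraries that stand apart.

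The rises in this comparison were smaller. Rps3a1 lay at 884, 711, 624, 939 and 857 FPKM in WT AP and at 1407, 1585, 1297 and 1454 FPKM in KO AP colon, a log2 difference of 0.85 (SE 0.19, limma adjusted p = 0.00639) without overlap. Rplp1 at 0.69 (SE 0.22, limma adjusted p = 0.0400) lost its call without KO AP replicate 3, 4 or 5, without WT AP replicate 2, 3 or 5, and without WT sham replicate 1 or 4. Rpl12, at 0.50, lost it without KO AP replicate 1, 3 or 5, without any of the WT AP libraries and without WT sham replicate 1 or 4. The same happened to Rpl17, at 0.67, when KO AP replicate 3 or 5 was left out, and when WT AP replicate 2 or 3 was. Of the falls, Rpl36a lost its call without KO AP replicate 1, and Rpl11 without any KO AP replicate, KO sham replicate 4, any WT AP replicate but 3, or any WT sham replicate but 2. Over all members, 11 were called when KO AP replicate 3 or 5 or WT AP replicate 2 was left out, and 7 (2 higher, 5 lower) without the 3 colon libraries that stand apart. 26 members (32.1%) had groups that did not overlap, against 15.4% of all genes tested.

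**Figure D3:**
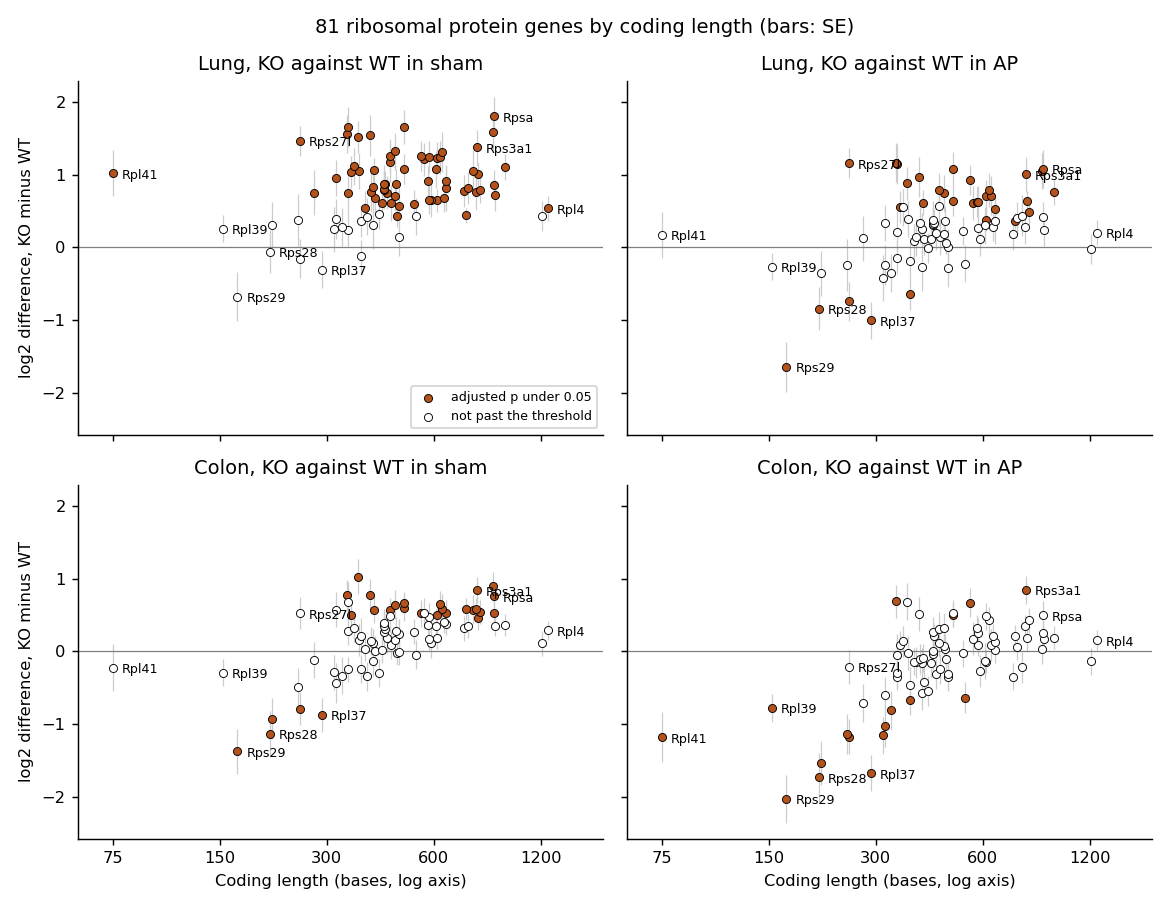
Difference of log2(FPKM + 1) between KO and WT libraries for the 81 tested members against coding length (log axis), with SE bars; filled points passed the adjusted threshold. The largest falls lie at the left: Rps29 reached -1.65 in lung AP and -2.03 in colon AP, and Rps27l, of the same coding length as Rps27, lay at 1.16 in lung AP.

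Members were next set beside other short protein-coding genes, since the falls sat at the short end of the family. The 10 tested members with coding length up to 300 bases had a median log2 difference of -0.31 in lung AP, 0.28 in lung sham, -1.18 in colon AP and -0.64 in colon sham. Other genes of that length had medians of 0.35, 0.62, -0.05 and 0.29 in the same comparisons (328 genes in lung and 311 in colon). Restricted to abundant genes, averaging 50 FPKM or more, the medians were 0.61, 0.87, -0.21 and 0.27. In colon AP 8 of the 10 short members fell, while of the 311 other short genes 45 fell and 21 rose. The 20 members of 601 to 900 coding bases had medians of 0.43, 0.89, 0.18 and 0.53, all above the medians of 0.23, 0.29, 0.05 and 0.23 of other genes in that range.

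Within the family the log2 difference between genotypes went up with coding length: Spearman's rho over the 81 members was 0.41 in lung AP, 0.31 in lung sham, 0.59 in colon AP and 0.51 in colon sham. Over other protein-coding genes up to the same coding length it was -0.16, -0.25, 0.00 and -0.17 (6271 genes in lung and 6028 in colon). With the length of the principal transcript in place of coding length, rho over the members was 0.27, 0.20, 0.39 and 0.30. A relation with coding length also appeared where no member was called: in WT lung, AP against sham, rho over the members was -0.58, beside -0.22 over the other genes. These are correlations across genes of the same libraries and describe them without a test. Members are more abundant than most genes of their length, and the part of length, abundance or isoform assignment in the falls was not tested beyond the corrections named here.

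**Figure D4:**
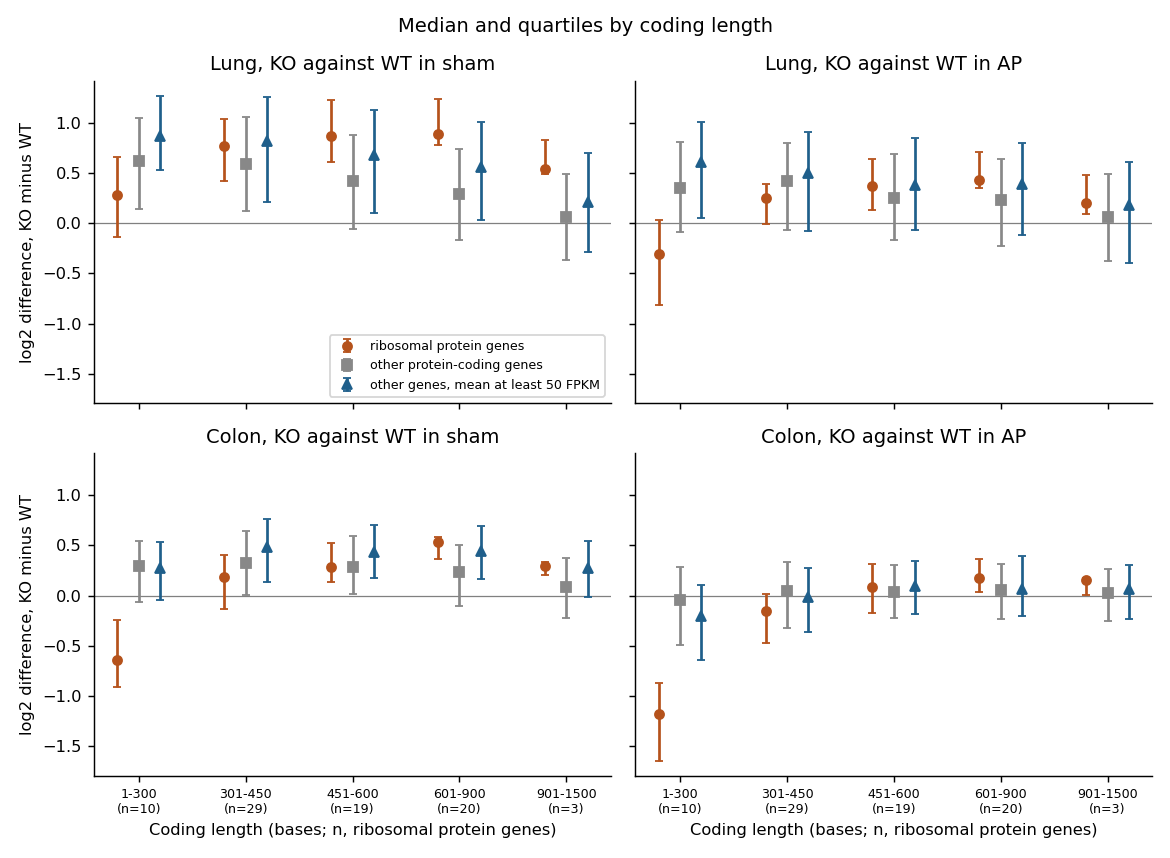
Median and quartiles of the log2 difference between KO and WT libraries in bins of coding length, for ribosomal protein genes, other protein-coding genes and other genes averaging 50 FPKM or more. In the shortest bin the members' medians of -1.18 (colon AP) and -0.64 (colon sham) lie below those of other short genes, -0.05 and 0.29.

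3 of the tested members have 1 annotated transcript, so that no assignment between isoforms enters their FPKM: Rplp1 (499 bases), Rpl36 (383 bases), a large-subunit protein, and Rps3a1 (977 bases). Recovered reads ran from 27729 to 261812 for Rplp1 and from 11806 to 62818 for Rpl36 in lung libraries, and from 50262 to 176956 and from 8979 to 29962 in colon libraries, so counting error was small beside the spread between libraries. Rpl36 amounted to 48.5% to 59.3% of the FPKM of Rplp1 in WT lung and to 14.5% to 31.3% in KO lung; in colon the ranges were 43.4% to 51.1% and 10.6% to 31.1%. The genotypes did not overlap in either tissue. Rps29, which has several transcripts, amounted to 45.4% to 79.0% of Rplp1 in WT lung and 4.90% to 17.1% in KO lung, and to 34.4% to 68.4% and 6.02% to 14.6% in colon. These ratios were formed after the values were seen and are given as a description.

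Called members were compared between treatments and between tissues. AP and sham groups hold different libraries, but all groups of a tissue shared 1 estimate of the spread, so their calls are not independent; lung and colon were fitted apart. All 27 members called higher in KO lung with AP were also among the 62 called higher in sham lung, which is 43.5% of the latter; over all genes, 79.6% of those called higher in AP were also called higher in sham, and 76.3% of those in sham also in AP. In colon, 5 members (Rps29, Rps28, Rpl37, Rpl38 and Rps27) were lower in both treatments, 38.5% of the 13 in AP and 100% of the 5 in sham, beside 55.9% and 39.7% over all genes called lower. Rps3a1, Rplp1, Rpl17 and Rpl12 were higher in both, 100% of the 4 in AP and 17.4% of the 23 in sham, beside 49.1% and 22.6% over all genes. Between lung and colon of AP mice, 5 were lower in both tissues (Rps29, Rps28, Rpl37, Rps27 and Rpl31), 100% of the lung and 38.5% of the colon list, beside 24.6% and 65.8% of all genes called lower. The 23 members that rose in KO sham colon were all among the 62 that rose in KO sham lung, which is 37.1% of the latter; over all genes, 81.4% of the colon list and 46.0% of the lung list were shared.

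AP against sham within a genotype gave no called member in either tissue. In WT lung 80 of 81 members had a log2 difference above 0 with a median of 0.17 and a range of -0.13 to 0.32; none passed, none had an unadjusted p under 0.05, while 0.0814% of all genes were called, 0.025% higher and 0.0563% lower (limma); groups overlapped for every member, and did not overlap for 5.06% of all genes. The smallest p there belonged to Rpl22l1, with a log2 difference of 0.32 (limma adjusted p = 0.879). In KO lung none of the 81 was above 0, with a median of -0.35 and a range of -0.67 to -0.11; 2 had an unadjusted p under 0.05, 0.0125% of all genes were called, and groups did not overlap for 0.907% of all genes and for no member. That median ran from -0.50 to -0.10 as single libraries were left out. In WT colon 78 of 81 were above 0 with a median of 0.14, 1 unadjusted p was under 0.05, and 0% of genes were called; groups did not overlap for 2.39% of all genes and for no member. In KO colon 11 were above 0 with a median of -0.18; 12 had an unadjusted p under 0.05, led by Rpl36 at -0.80 (SE 0.26, limma adjusted p = 0.134), and 0.04% of genes were called, 0.02% in each direction; groups did not overlap for 2.87% of all genes and for no member. Without KO sham replicate 1, 9 members were called lower in KO AP than in KO sham colon, where 9.19% of all genes were then called (11.1% of the members); without any other single library no member was.

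The test of whether the response to AP differed between genotypes likewise called no member in either tissue and 0% of all genes. The median of this difference of differences was -0.52 in lung, where all 81 values were below 0 and 1 unadjusted p was under 0.05, and -0.32 in colon, where 3 values were above 0 and 8 unadjusted p values were under 0.05 (limma). Rpl13a had the smallest p in lung, with a value of -0.77 (limma adjusted p = 0.570), and Rpl36al in colon, with -1.17 (limma adjusted p = 0.111). Leaving out KO sham replicate 1 gave 5 members called in colon (6.17%), beside 7.83% of all genes. With all libraries kept, other abundant short genes had medians of -0.35 in lung and -0.53 in colon for this difference of differences. Of these genes 32 of 199 and 26 of 189 lay above 0, beside 53.3% and 47.4% of all genes.

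Paralogs were compared with their parent genes as a share of the pair's summed FPKM, a measure within each library. These ratios were chosen after the values were seen. Their p-values, here and in the next paragraph, therefore describe the separation of the groups and are no independent support. Rps27l made up 8.15% ± 1.18 of its pair in WT sham lung, 7.62% ± 1.26 in WT AP, 22.0% ± 6.13 in KO sham and 23.8% ± 4.88 in KO AP lung (SD, n = 5). In colon the shares were 12.7% ± 1.42, 14.6% ± 2.04, 26.6% ± 2.01 and 25.3% ± 7.10 (n = 4 in the last). KO and WT libraries did not overlap in any of the 4 comparisons, and the mean log2 ratio was higher in KO by 1.90 in lung AP, 1.63 in lung sham, 0.96 in colon AP and 1.32 in colon sham (two-sided exact permutation test, adjusted p = 0.0254 each over 32 tests; the unadjusted p of 0.00794 is the smallest this design allows). Rps27l itself rose in lung, from 95.3, 90.8, 91.3, 103 and 83.4 FPKM in WT AP to 289, 167, 213, 215 and 175 FPKM in KO AP. In colon with AP it lay at 158 to 268 FPKM in WT and at 136 to 228 FPKM in KO libraries, which overlapped, while Rps27 fell there.

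Rpl22l1, the paralog of the RNA-binding protein Rpl22, rose in lung by 0.88 in AP and 1.52 in sham on the log2 scale, while Rpl22 was at 115 to 187 FPKM in WT AP and at 127 to 194 FPKM in KO AP libraries. Its log2 ratio to Rpl22 was higher in KO by 0.79 in lung AP, 0.97 in lung sham and 0.99 in colon sham (two-sided exact permutation test, adjusted p = 0.0254 each); in colon AP the difference was 0.82 with overlapping groups (adjusted p = 0.0586, exact permutation). For Rpl36al, the autosomal copy of X-linked Rpl36a, the log2 ratio was higher by 0.58 in lung AP, 0.57 in lung sham and 1.01 in colon sham (adjusted p = 0.0254 each, exact permutation), and by 0.42 in colon AP, which did not pass (adjusted p = 0.330, exact permutation). Rpl7l1 was between 2.45% and 5.26% of its pair with Rpl7 in all libraries. Its log2 ratio was lower in AP than in sham WT lung by a difference of -0.24 with overlapping groups (adjusted p = 0.0462, exact permutation). No other AP against sham comparison of a pair passed, and in KO lung the difference for Rpl7l1 was -0.009.

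**Figure D5:**
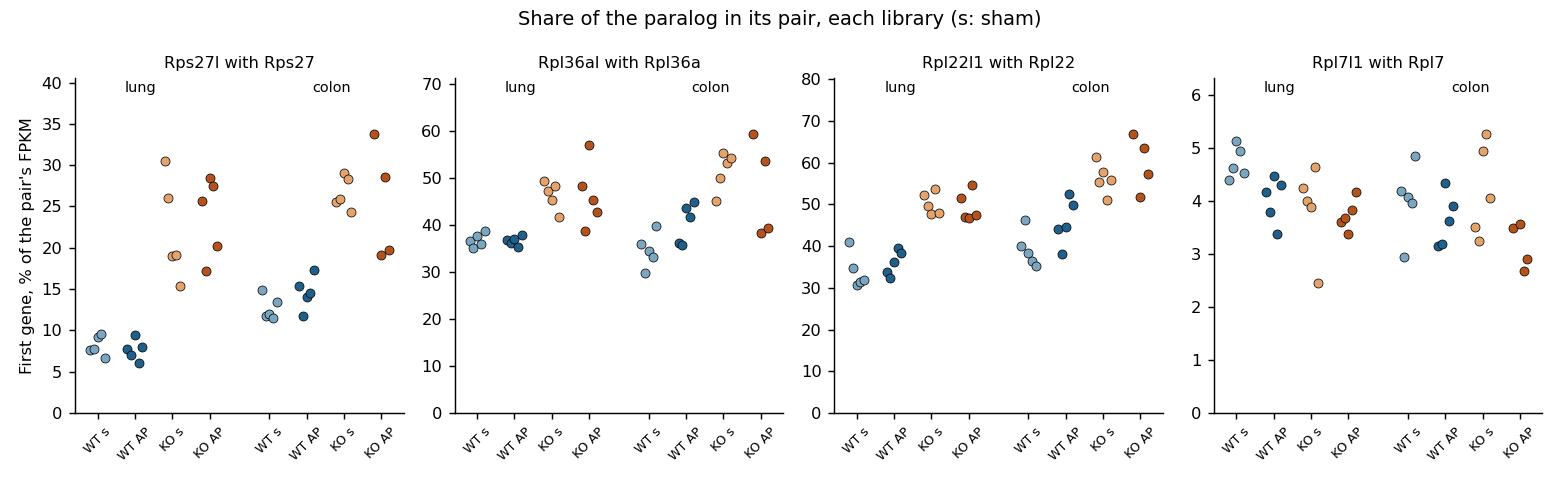
Share of the paralog in the summed FPKM of its pair, in percent, for each library by tissue, genotype and treatment. For Rps27l the WT lung libraries lie near the means of 8.15% and 7.62% and all KO lung libraries lie above them, with means of 22.0% and 23.8%.

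The remaining paralogs were at or near 0. Rpl10l, a retrogene known from testis, was listed at 0 in all colon libraries and had at most 8 recovered reads in a lung library. Rpl39l, also known from testis, stayed at or below 0.273 FPKM in all libraries. Rpl3l, which replaces Rpl3 in skeletal and heart muscle, was between 0 and 0.822 FPKM in 19 of 20 lung libraries and at 16.9 FPKM in KO AP replicate 3. In that library skeletal muscle markers summed to 3208 FPKM, against 2.44 to 11.1 FPKM in the rest of its group, and cardiac muscle markers to 2209 FPKM, against 94.9 to 361 FPKM.

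Genes of related pathways were described by counts and medians. Rack1, a scaffold protein on the small subunit whose symbol the family pattern does not match, had log2 differences of 0.72 in lung AP, 1.07 in lung sham and 0.52 in colon sham, each past the threshold. Of 17 translation factors with a pyrimidine start, 6 rose and 2 fell in lung AP, 8 rose and 1 fell in lung sham, 3 rose and 1 fell in colon AP, and 6 rose in colon sham. The shares that rose were 35.3%, 47.1%, 17.6% and 35.3%, beside 27.6%, 28.8%, 7.37% and 16% of all genes called higher. Eef1g, a subunit of elongation factor 1, had log2 differences of 0.96, 1.37, 0.48 and 0.93 in these comparisons and passed in each. Of 20 ribosome biogenesis genes 7, 12, 0 and 10 rose in the same order (35%, 60%, 0% and 50%) and 1 fell, Gar1 in colon AP. Rrp9, which processes ribosomal RNA, had log2 differences of 0.81 in lung AP, 0.88 in lung sham and 1.14 in colon sham.

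Of 14 growth regulators 3 rose and 4 fell in lung AP, 4 rose and 6 fell in lung sham, 2 fell in colon AP, and 2 rose and 2 fell in colon sham. In lung AP 21.4% rose and 28.6% fell, beside 27.6% and 28.1% of all genes. In lung sham it was 28.6% and 42.9%, beside 28.8% and 30%. In colon AP it was 0% and 14.3%, beside 7.37% and 10.9%, and in colon sham 14.3% each way, beside 16% and 15.4%. Medians of the list were -0.13, -0.20, 0.01 and -0.03 in the same order. Tsc1, an inhibitor of mTOR, had log2 differences of -1.07 in lung AP, -1.15 in lung sham, -0.65 in colon AP and -0.89 in colon sham, and Mtor itself -0.94, -1.12, -0.50 and -0.40, all past the threshold. Among 78 mitochondrial ribosomal protein genes, which are short but build another ribosome, 61 rose in lung AP, 69 in lung sham, 3 in colon AP and 63 in colon sham, with medians of 0.67, 0.84, -0.02 and 0.67; 1 fell, in colon AP. Over all genes 27.6%, 28.8%, 7.37% and 16% were called higher in these comparisons. Of 14 proteasome core genes, 10, 14, 0 and 10 rose and none fell, with medians of 0.64, 1.12, -0.22 and 0.70. Of the nuclear respiratory chain genes, 60 of 96 rose in lung AP, 76 of 96 in lung sham, 2 of 95 in colon AP and 32 of 95 in colon sham, while 1, 0, 6 and 1 fell. The mitochondrial ribosomal, proteasome core and respiratory chain lists had medians in lung as high as that of the ribosomal protein genes or higher. Lower lung medians were seen for growth regulators, for translation factors (0.14 in AP, 0.31 in sham) and for ribosome biogenesis genes (0.28 in AP, 0.55 in sham). Of the ribosomal protein pseudogenes tested, 36 of 92 rose in lung AP, 59 of 92 in lung sham, 27 of 93 in colon AP and 32 of 93 in colon sham. These shares were 39.1%, 64.1%, 29.0% and 34.4%, beside 27.6%, 28.8%, 7.37% and 16% of all genes called higher. In the same order 3, 0, 5 and 3 fell (3.26%, 0%, 5.38% and 3.23%), beside 28.1%, 30%, 10.9% and 15.4% of all genes called lower. AP against sham called no gene of any of these lists.

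Markers of several other cell types moved with genotype in the same libraries, and a selection of the lists is given. Over all genes 28.1%, 30%, 10.9% and 15.4% were called lower in lung AP, lung sham, colon AP and colon sham. B and plasma cell markers had 2 of 4 called lower in each lung comparison and 0 of 4 called in each colon comparison. Of the T and NK cell markers 5 of 5 fell in KO lung with AP and in KO colon of both treatments, and 3 of 5 in KO sham lung; their sums were 22.9 to 96 FPKM in WT lung, 4.37 to 75.8 in KO lung, 11.4 to 98.0 in WT colon and 1.05 to 66.8 in KO colon. Endothelial markers fell in 4 of 4 cases in each comparison of genotypes, with sums of 528 to 751 FPKM in WT lung and 123 to 409 in KO lung, and of 15.2 to 31.1 in WT colon and 6.02 to 13.7 in KO colon. Fibroblast markers fell in 4, 2, 4 and 3 of 4 cases in lung AP, lung sham, colon AP and colon sham. By contrast, 2 of 3 smooth muscle markers rose in both colon comparisons, beside 7.37% (AP) and 16% (sham) of all genes called higher. In lung the smooth muscle sums were 102 to 127 FPKM in WT sham and 156 to 286 in KO sham. With AP they were 100 to 156 in WT and 160 to 523 in KO lung. The sum of 523 belonged to KO AP replicate 3, the library with high skeletal and cardiac muscle markers, and the next highest was 251. Colon macrophage sums with AP were 69.8 to 206 FPKM in WT and 22.1 to 59.1 in KO libraries. Goblet sums there were 1188 to 5225 and 547 to 773, and epithelial sums 1760 to 2673 and 2228 to 5006. In sham colon the genotypes overlapped for each of these. Alveolar type 1 sums with AP were 1799 to 2005 FPKM in WT and 1075 to 1733 in KO lung, and overlapped in sham. Lung macrophage and alveolar type 2 sums overlapped in both treatments. The part of these cell types in the differences of the ribosomal protein genes was not tested. In bulk tissue, fewer cells of a type and less RNA per cell cannot be told apart.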

How the data were processed

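Enriched mRNA of lung and colon was sequenced on an Illumina NovaSeq instrument, per the labels' protocols. The authors deposited 1 table of FPKM values per tissue; the submitters' processing notes name HISAT2 2.1.0, StringTie 1.3.3b and mm39 but not what each was used for. Values were tested as log2(FPKM + 1) with limma 3.58.1 (trend, 4 group means per tissue, 5 contrasts) in R 4.3.3, for genes that reached 1 FPKM in 4 or more libraries of the tissue, at a Benjamini-Hochberg adjusted p under 0.05. A difference on this scale understates the change of low genes. Coding lengths, symbols and coding sequences came from GENCODE (GRCm38), and start sites from RefSeq (GRCm38.p6), so no coordinate refers to the build of the submitters.

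In each library 98.5% to 98.9% of the values of genes with 1 transcript were whole multiples of 1 read within 0.02, which gave the depth; 80 of the 84 members have several transcripts and gave no reads, so no count test was run. Python 3.11.15, numpy 2.4.6, pandas 2.3.3, scipy 1.17.1 and matplotlib 3.10.9 did the rest. The fit was tested on simulated data.

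The members and gene lists were chosen with earlier results of these data known. The text names the stalk genes, the paralogs with their parents, a list of members with known roles, and in each comparison the 4 largest rises and falls past the threshold or, failing these, the lowest p; other members are named where they complete a count of 5 or fewer or have 1 transcript, after their values were seen. The groups by coding length, the paralog ratios and the correction for coding length were chosen after seeing the data. Replicate numbers did not pair libraries: correlations between deviations of equal numbers ran from -0.52 to 0.46. A coding sequence and a gene of a related list are not reported here.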

Additional observations from a re-analysis of the deposited data

Results flagged for a closer look

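In 28 of 160 group and measure combinations the highest or lowest library stood apart from the rest of its group by Dixon's criterion, where chance gives about 1 in 20; the measures share libraries and are not independent. KO sham replicate 5 of lung was high for 8 genes: Rps29 at 1167 FPKM (next 373), Rps28 at 942 (442), Rps27 at 2048 (828), Rplp1 at 6814 (3256), Rplp2 at 1899 (879), Rpl36a at 832 (337), Rpl22 at 371 (187) and Rpl41 at 4991 (2209). Its short members made up 12.4% of the members' FPKM, against 10.1% in the next library. KO sham replicate 2 of colon was high for Rps29 at 649 FPKM (363), Rplp1 at 4564 (2485), Rplp2 at 1024 (542) and Rpl22 at 279 (167), and for the share of short members at 10.4% (8.57%).

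Among WT libraries, sham replicate 2 of colon was high for Rplp1 at 2460 FPKM (1624), Rplp2 at 601 (368), Rpl41 at 3457 (1572), Rps27l at 265 (159) and Rpl22l1 at 196 (108). AP replicate 4 of lung was high for Rplp2 at 467 FPKM (288), Rpl41 at 1739 (1191), Rpl36al at 233 (167) and Rpl22l1 at 123 (76.6). Sham replicate 5 of lung was high for Rpl41 at 1225 FPKM (959) and Rpl36al at 190 (142), and AP replicate 5 of lung was low for Rplp0 at 517 FPKM. Rpl3l stood at 16.9 FPKM in KO AP replicate 3 of lung (0.822) and at 0.137 FPKM in KO sham replicate 5 of colon (0.0353).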

How the results depend on the processing

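Against main counts of 32 called members in lung AP, 62 in lung sham, 17 in colon AP and 28 in colon sham (KO against WT), the count in lung sham was 41 after the correction for transcript length and 40 with that correction and the replicate block. In colon AP it was 10 with no filter on low values, 28 after a correction for coding length and 7 without the libraries that stand apart (the last chosen, like the coding length correction, after seeing the data). In colon sham it was 15 with only the groups compared in the fit and 18 with the length correction and the replicate block. The replicate block alone gave 32, 61, 16 and 28. Leaving out 1 library at a time gave 24 to 38, 53 to 66, 11 to 21 and 17 to 40; it gave 0 to 9 for AP against sham in KO colon, 0 to 5 for the difference of responses in colon, and 0 in the other comparisons. The TPM scale moved the median of all genes by -0.19, -0.24, -0.12 and -0.16, and upper-quartile scaling moved the difference of responses in colon by 0.10. After the coding length correction the splits into higher and lower were 19 and 16, 38 and 7, 8 and 20, and 9 and 16; after the transcript length correction that of colon AP was 7 and 18. Rpl22 in lung sham reversed to -0.026 with the coding length correction. The causes of these shifts were not tested. Rps29 passed in lung AP, colon AP and colon sham under every alternative run, with log2 differences of -1.99 to -1.44, -2.25 to -1.76 and -1.62 to -1.17. FPKM gives no count for members with several transcripts, so their counting error is unknown.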
